A study of Mus musculus with 75 samples.

Results

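The insulin-like growth factor axis was followed through 10 genes in mouse medulloblastoma allografts treated with MK4101, an inhibitor of the Hedgehog pathway. They were the ligands Igf1 and Igf2, the receptor Igf1r, the receptor-proximal adaptor Irs4 and the binding proteins Igfbp2 to Igfbp7, taken by name as the listed members of the axis. All 10 were among the 21552 genes measured. The tumours came from Ptch1+/- mice, which carry 1 inactive copy of a gene that restrains Hedgehog signalling, and grew as allografts in nude CD1 mice, whose defective thymus leaves them without most T cells. All groups, vehicle included, shared this tumour and host background. Ages of tumours and hosts are not given in the sources used here, nor is the dose from which the time was counted in the multiple-dose groups. In the single-dose experiment, labelled QD, allografts received vehicle, 40 mpk or 80 mpk and were taken at 1, 6, 12, 24 or 36 h, with 3 to 5 arrays a group and 61 arrays in all. In the multiple-dose experiment, labelled BID, allografts received vehicle or 80 mpk, with 4 and 1 arrays at 24 h and 5 and 4 arrays at 36 h. Each of the 75 arrays was 1 sample. The labels did not say whether samples of a group came from separate animals or whether 1 tumour was passaged, so the tests measure the spread between these samples, which may be partly technical.

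IGF1 and IGF2 are secreted growth factors that bind the receptor tyrosine kinase IGF1R, which signals through adaptors of the IRS family to phosphoinositide 3-kinase, AKT and the FoxO transcription factors. In the extracellular space the ligands are carried by IGF binding proteins, which can hold them away from the receptor or deliver them to it, and which proteases such as PAPP-A cut. Igf2 is an imprinted gene, and in mice that lack 1 copy of Ptch1 it is known to be needed for medulloblastoma formation. Cells of the cerebellar granule lineage, from which these tumours arise, respond to IGF ligands together with Sonic hedgehog.

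Igfbp5, a binding protein that also attaches to extracellular matrix, and Irs4, an adaptor of the IRS family, were the members that rose earliest. Both were higher at 6 h and at 12 h with either dose. Igfbp5 stayed high, with a change of 6.19-fold at 24 h after 80 mpk, while Irs4 was no longer called then. Igf1, Igfbp4, Igfbp6 and Igfbp7 rose at 24 h, when transcripts of fibroblasts and macrophages were also higher, and after 80 mpk those of endothelium. At 36 h Igf1r was called lower after single and multiple 80 mpk dosing and Igf2 after a single 80 mpk dose. These falls were of less than 1 unit on the log2 scale, and neither gene was called after 40 mpk. Leaving out 1 array lost the single-dose call in 4 of 7 fits for Igf1r and 6 of 7 for Igf2.

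Signal in this account is the deposited intensity, whose mean is 1 on each array, and levels are geometric means over arrays. Changes are differences of log2 signal, treated minus vehicle of the same time and schedule, from a limma fit to all 75 arrays, and adjusted p values are Benjamini-Hochberg values over all 21552 genes in each comparison. A gene was called at an adjusted p under 0.05. Statements that arrays lay above or below vehicle describe the values only, since the share of all genes separated in this way was not counted. As a check of the labels, Gli1, a direct transcriptional output of Hedgehog signalling, changed by -4.00 at 6 h and -3.19 at 24 h after 80 mpk, and by 0.05 (adjusted p = 0.936) at 36 h. Ptch1, another direct output and the gene of which the mice carry 1 inactive copy, changed by -1.35, -1.39 and -0.25 (adjusted p = 0.228) at these times. The mean of 8 markers of the granule neuron lineage, Atoh1 and Zic1 among them, was 1.58 to 2.53 on the log2 scale over all arrays, and none of the 8 was at 0. Skeletal muscle transcripts set apart 23 arrays, whose mean over 8 muscle markers exceeded 0 on the log2 scale. They lay in treated and vehicle groups but were not evenly spread. At 24 h they were 3 of 4 after 40 mpk, 2 of 4 after 80 mpk and 1 of 5 in vehicle. At 36 h they were 2 of 3, 1 of 4 and 0 of 3 in that order, and at 1 h 0 of 4, 1 of 5 and 1 of 5. With multiple dosing at 36 h they were 2 of 4 treated and 1 of 5 vehicle arrays. Calls of members against vehicle that changed without the muscle-rich arrays are given where each member is described. These are bulk tissue samples, in which fewer cells of a type and less RNA per cell cannot be told apart.

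The promoters of the earliest members are shown because Igfbp5 and Irs4 moved first and together, and that of Igfbp4 stands for the later group. The windows are the 250 bases before the annotated start of transcription, 5′ to 3′ on the transcribed strand, from RefSeq on GRCm38.p6. They lie at chr1:72874866-72875115 on the minus strand for Igfbp5, at chrX:141725218-141725467 on the minus strand for Irs4 and at chr11:99040994-99041243 on the plus strand for Igfbp4. Capitals mark the core of the GLI binding consensus (CCACCC or GGGTGG) and the TATA letters (TATAAA or TTTATA).
Igfbp5: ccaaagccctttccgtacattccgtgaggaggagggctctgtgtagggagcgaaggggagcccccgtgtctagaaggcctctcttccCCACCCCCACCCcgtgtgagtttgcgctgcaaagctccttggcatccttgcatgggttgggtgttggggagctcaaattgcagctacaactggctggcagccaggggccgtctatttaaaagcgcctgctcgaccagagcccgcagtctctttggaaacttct
Irs4: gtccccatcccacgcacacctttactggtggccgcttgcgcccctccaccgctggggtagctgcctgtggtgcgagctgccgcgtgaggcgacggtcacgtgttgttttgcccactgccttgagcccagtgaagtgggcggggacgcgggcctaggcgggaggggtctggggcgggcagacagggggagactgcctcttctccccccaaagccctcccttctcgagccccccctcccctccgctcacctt
Igfbp4: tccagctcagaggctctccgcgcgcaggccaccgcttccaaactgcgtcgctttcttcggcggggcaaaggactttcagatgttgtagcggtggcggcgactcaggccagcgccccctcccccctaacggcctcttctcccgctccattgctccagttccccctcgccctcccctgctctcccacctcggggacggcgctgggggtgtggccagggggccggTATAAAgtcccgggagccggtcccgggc
All 10 members matched RefSeq promoter windows, 14 windows in all. The window searched ran from 250 bases before to 50 bases after the start, on both strands. The GLI consensus TGGGTGGTC, or its reverse complement GACCACCCA, was found in 0 of the 14 windows and in 0.253% of all 32851 windows of the same length. The short core CCACCC stood in windows of 5 members, Igfbp2, Igfbp3, Igfbp5, Igfbp6 and Igf2. These were 7 of the 14 windows, against 31.5% of all windows, and any match to the full consensus would contain the core. In Igfbp5 a pair of these cores stood next to each other, 163 and 157 bases before the start, and Irs4 had none. TATAAA stood 28 bases before the start of Igfbp4 and its reverse complement stood 148 bases before that of Igfbp6, and 13.6% of all windows held either. The FoxO motif TGTTTAC was in none of the members' windows and in 3.65% of all windows. Igfbp2 and Igfbp5 are neighbouring protein-coding genes on chromosome 1 in GRCm38.p6, transcribed towards each other, with the first listed start of Igfbp2 50.4 kb from the start of Igfbp5. A match of letters is a description and shows no binding.

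Counted over the 10 members, 0 were called at 1 h after either dose, as were 0% and 0% of all genes. By limma at an unadjusted p under 0.05, 1 member and 1325 genes passed after 80 mpk at 1 h, and 2 members and 2290 genes after 40 mpk, namely Igf1r at both doses and Igfbp7 at 40 mpk. After 80 mpk, 2 members were called higher at 6 h, 3 at 12 h, 6 at 24 h and 3 at 36 h, against 0.575%, 3.85%, 17.6% and 5.22% of all genes. The 2 called lower at 36 h, Igf2 and Igf1r, compare with 5.64% of all genes. After 40 mpk, 2, 3, 5 and 1 members were higher at 6, 12, 24 and 36 h, against 0.626%, 3.9%, 14.5% and 0.288%. With multiple dosing at 36 h, 5 were higher and Igf1r was lower, against 19.8% and 17.7% of all genes. The median change of the 10 at 24 h after 80 mpk was 0.92, beside -0.02 over all genes. Among vehicle arrays of the single-dose times 0 members were called, against 6.28% of genes. At an unadjusted p under 0.05 by limma, 1 member, Igf1r (adjusted p = 0.0902), and 4908 genes passed. From 6 h to 12 h the 80 mpk effect changed in 0 members and 0.176% of genes. There 2 members, Igfbp5 and Irs4, and 1788 genes were at an unadjusted p under 0.05 by limma. From 24 h to 36 h the 80 mpk effect was lower in Igfbp5 alone, against 1.75% of genes. The treated groups of one time share their vehicle arrays, so the doses are not independent of each other in these counts, and since the members were chosen with results known the counts are descriptions.

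**Figure D1:**
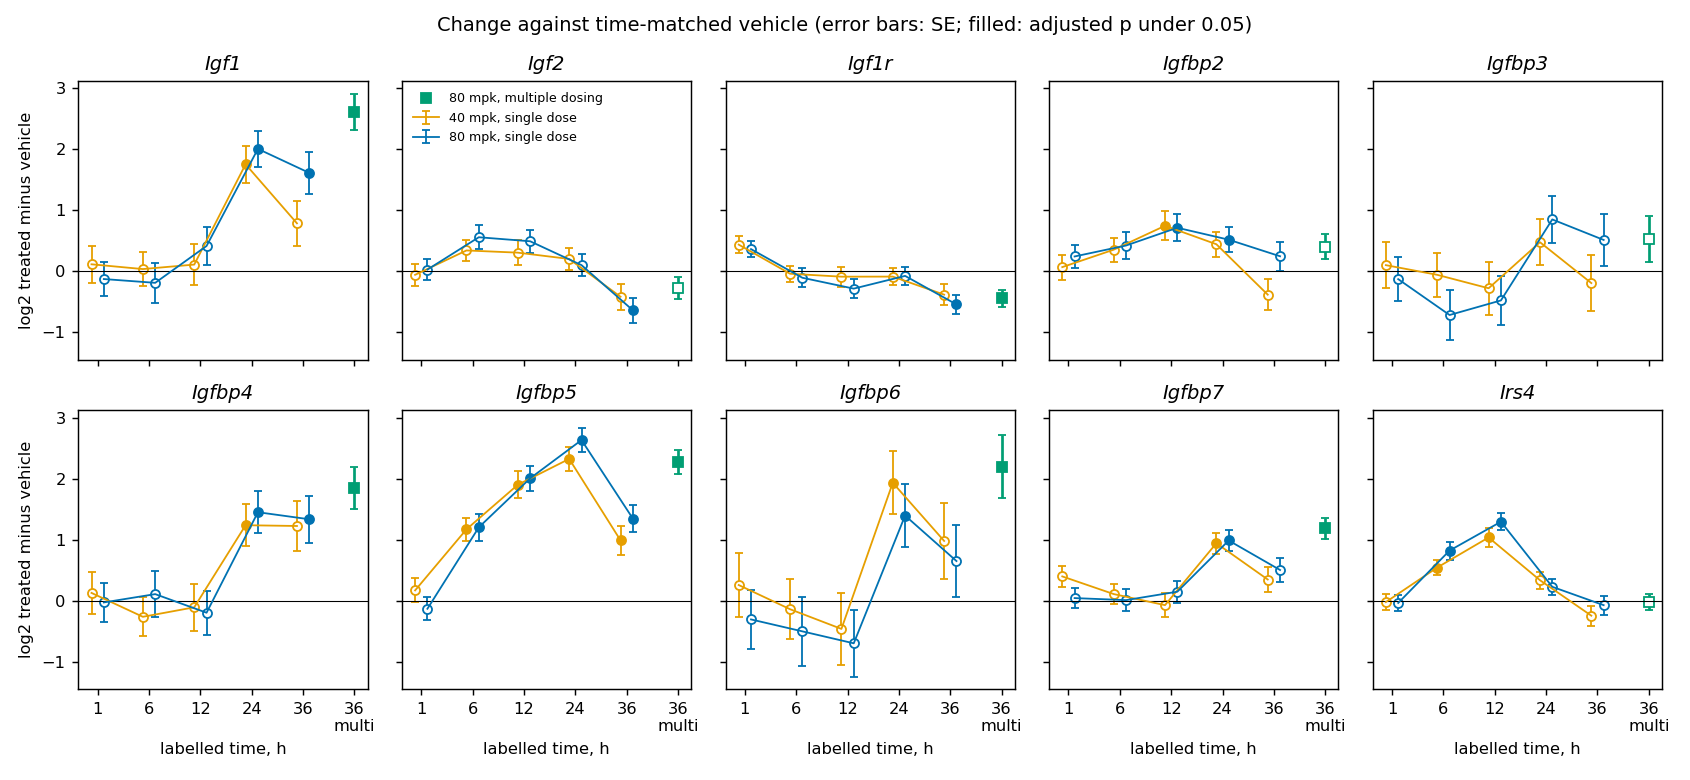
Log2 change against vehicle of the same time for the 10 members, by labelled time, after 40 mpk (orange) and 80 mpk (blue) single doses and with 80 mpk multiple dosing at 36 h (green). Error bars are standard errors and filled symbols have an adjusted p under 0.05. Igfbp5 is filled from 6 h on in every series, Irs4 at 6 and 12 h, and Igf1, Igfbp4, Igfbp6 and Igfbp7 from 24 h, with open symbols among them at 36 h.

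Igfbp5 was called higher at every time from 6 h on, with both doses. In vehicle tumours its signal at 6 h was 5.75, 6.70, 5.78, 5.33 and 6.28. After 80 mpk it was 12.5, 15.2 and 13.4, and after 40 mpk 18.3, 14.1, 11.6, 12.8 and 11.1. Every treated array at 6 h lay above every vehicle array. The change at 6 h was 1.20 ± 0.22 (SE; adjusted p = 0.000183) after 80 mpk and 1.17 ± 0.19 (SE; adjusted p = 1.43e-05) after 40 mpk. At 12 h the vehicle arrays read 7.53, 6.96, 6.28 and 6.68, and the 80 mpk arrays 29.0, 26.2, 25.6 and 29.3. The groups were far apart, with a change of 2.0 ± 0.21 (SE; adjusted p = 4.97e-11), the 8th largest rise of 21552 genes, and the change after 40 mpk, 1.90 ± 0.23 (SE; adjusted p = 6.04e-09), was the largest rise of all genes in that comparison.

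At 24 h Igfbp5 reached 30.6, 32.4, 38.5 and 35.9 in the 80 mpk arrays, against 7.50, 4.87, 4.81, 5.22 and 5.60 in vehicle, a change of 2.63 ± 0.20 (SE; adjusted p = 3.22e-17). The 40 mpk arrays read 24.2, 30.4, 28.0 and 28.1 and differed from vehicle by 2.32 ± 0.20 (SE; adjusted p = 3.93e-14). All 8 treated arrays were above all 5 vehicle arrays. By 36 h the signal had come down, to 20.8, 9.94, 17.7 and 14.5 after 80 mpk, with vehicle at 5.28, 7.77 and 5.21. It was still higher than vehicle by 1.34 ± 0.23 (SE; adjusted p = 1.71e-05), and the change at 36 h was smaller than that at 24 h by a tested difference of -1.29 ± 0.30 (SE; adjusted p = 0.00259). After 40 mpk at 36 h the arrays read 16.0, 13.3 and 7.76, 1 of them below the highest vehicle array, and the change was 0.99 ± 0.24 (SE; adjusted p = 0.0275), a call lost on leaving out either of 2 vehicle or 2 treated arrays and not made in the second probe set (adjusted p = 0.283). It was also lost with the muscle and fibroblast marker means as covariates, at 0.85 (adjusted p = 0.0511), and with only the groups compared in the fit (adjusted p = 0.403). The step from 6 h to 12 h, 0.80 ± 0.30 (SE; adjusted p = 0.363), and that from 12 h to 24 h, 0.63 ± 0.29 (SE; adjusted p = 0.126), did not pass the test.

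With repeated doses the 4 arrays of the 36 h group read 30.2, 35.2, 40.7 and 29.4 and the 5 vehicle arrays 7.01, 6.50, 9.20, 6.10 and 6.52. The groups did not overlap and differed by 2.27 ± 0.20 (SE; adjusted p = 5.72e-15). The effect at 36 h was larger with multiple than with single dosing by 0.92 ± 0.30 (SE; adjusted p = 0.0457), 1 of 10 members called against 1.9% of genes called higher, and 10 of the 16 fits that left out 1 array missed the threshold, as did that with quantile scaling (0.88, adjusted p = 0.0598) or median centring (0.86, adjusted p = 0.0637), with the covariates (0.82, adjusted p = 0.0748) and with only the groups compared (adjusted p = 0.106). A second Igfbp5 probe set gave changes of 0.88, 1.86, 2.37 and 1.08 at 6, 12, 24 and 36 h after 80 mpk, each called. Without the arrays rich in muscle transcripts the change was 2.04 (adjusted p = 6.62e-07) at 12 h and 2.52 (adjusted p = 2.99e-10) at 24 h, and 80 mpk at 6 h had too few arrays left. With the muscle and fibroblast marker means as covariates it was 1.16 (adjusted p = 0.00014) at 6 h, 1.99 (adjusted p = 1.93e-11) at 12 h and 2.45 (adjusted p = 3.76e-15) at 24 h. At 6 and 12 h after 80 mpk, 0 of 8 fibroblast, 0 of 8 macrophage and 0 of 8 endothelial markers were called higher by limma, and 1 endothelial marker was lower at 12 h. Of 8 granule lineage markers 3 were higher at 6 h and 4 at 12 h. Of all genes, 0.575% were called higher at 6 h and 3.85% at 12 h, and 1.18% and 5.99% were called lower. With so few genes called, 0 of 8 would be usual for any list, and the part of host cells was not tested. The muscle markers had median differences of 2.54 and 2.07 at these times with 0 of 8 called, and 2 of 3 and 2 of 4 treated arrays but 1 of 5 and 1 of 4 vehicle arrays were rich in muscle. Within groups the slope on the muscle mean was 0.02 ± 0.01 (SE; adjusted p = 0.377) for Igfbp5 and -0.00468 (adjusted p = 0.842) for Irs4.

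Irs4 is dim on these arrays: its signal ran from 0.0416 to 0.211 on a scale where the array mean is 1, and without detection calls it cannot be said how far that lies above background. At 6 h it read 0.0619, 0.0619, 0.0660, 0.0535 and 0.0763 in vehicle and 0.0808, 0.123 and 0.142 after 80 mpk. The groups did not overlap, and the change was 0.82 ± 0.15 (SE; adjusted p = 0.000208), lost when the fit held only the groups compared (adjusted p = 0.114). After 40 mpk at 6 h the 5 arrays read 0.105, 0.0841, 0.101, 0.0806 and 0.0940, all above vehicle, with a change of 0.54 ± 0.13 (SE; adjusted p = 0.00843), lost without the fourth vehicle array (adjusted p = 0.0515) or without the muscle-rich arrays (adjusted p = 0.0688). At 12 h the vehicle arrays read 0.0719, 0.0574, 0.0867 and 0.0754, the 40 mpk arrays 0.211, 0.107 and 0.142 and the 80 mpk arrays 0.145, 0.168, 0.195 and 0.204. Both treated groups lay wholly above vehicle. The changes were 1.29 ± 0.14 (SE; adjusted p = 3.46e-10) after 80 mpk, the 20th largest rise of all genes, and 1.03 ± 0.16 (SE; adjusted p = 1.85e-06) after 40 mpk, the second at an adjusted p of 0.0564 with only the groups compared in the fit. At 24 h the changes were 0.22 ± 0.14 (SE; adjusted p = 0.220) and 0.33 ± 0.14 (SE; adjusted p = 0.0625), and at 36 h -0.08 and -0.25, none of them called, and 3 of 4 and 3 of 3 arrays lay below vehicle at 36 h. The fall of the 80 mpk effect from 12 h to 24 h was itself called, at -1.07 ± 0.20 (SE; adjusted p = 8.17e-05), and held in every alternative that gave a value for it. With the muscle and fibroblast means as covariates its change after 80 mpk was 0.84 (adjusted p = 0.000128) at 6 h and 1.32 (adjusted p = 2.52e-10) at 12 h. Irs4 has 1 probe set here and lies under the filter on dim genes, so no value with that filter exists. With multiple dosing at 36 h it differed from vehicle by -0.02 ± 0.14 (SE; adjusted p = 0.934).

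**Figure D2:**
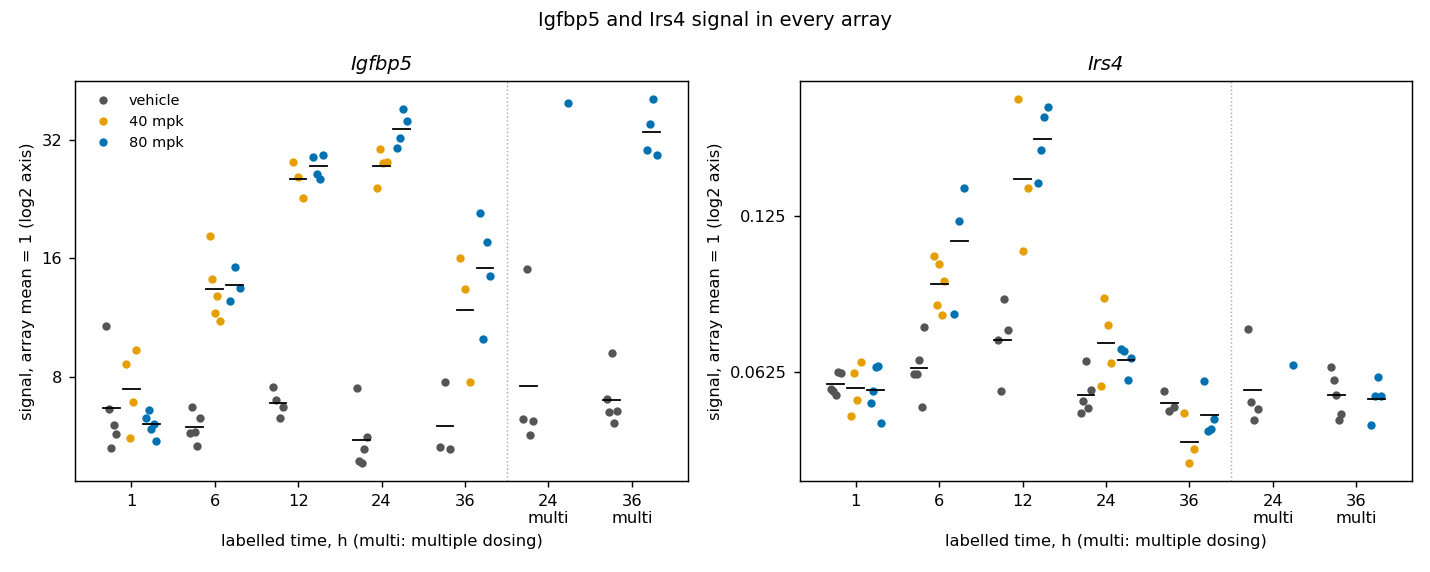
Signal of Igfbp5 (left) and Irs4 (right) in every array, on a log2 axis, by labelled time and schedule. Points are arrays, coloured by vehicle (grey), 40 mpk (orange) and 80 mpk (blue), and black bars are geometric means. Igfbp5 is at 34.2 after 80 mpk at 24 h against 5.52 in vehicle, and Irs4 peaks at 12 h, at 0.176 against 0.0721.

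Of the ligands, Igf1, a growth factor made by liver and by many stromal cells and macrophages, was called at no time before 24 h. At 12 h its 80 mpk arrays read 0.745, 1.25, 1.31 and 0.782 against 0.973, 0.630, 0.878 and 0.564 in vehicle, overlapping, with a difference of 0.41 ± 0.32 (SE; adjusted p = 0.531). At 24 h they read 5.29, 2.30, 2.30 and 2.93 against 1.06, 0.594, 0.591, 0.864 and 0.738. The 40 mpk arrays read 3.27, 2.03, 2.67 and 2.30. Every treated array at 24 h was above every vehicle array, and the changes were 2.01 ± 0.30 (SE; adjusted p = 1.53e-07) after 80 mpk and 1.75 ± 0.30 (SE; adjusted p = 4.8e-06) after 40 mpk. At 36 h the 80 mpk arrays remained above vehicle by 1.61 ± 0.34 (SE; adjusted p = 0.000616), and 40 mpk differed by 0.79 ± 0.37 (SE; adjusted p = 0.394), with 3 of 3 arrays above vehicle. With multiple dosing Igf1 was 4.15, 3.62, 2.88 and 3.90 against 0.630, 0.664, 0.704, 0.484 and 0.504, a change of 2.61 ± 0.30 (SE; adjusted p = 7.05e-11), the largest of the 10 members there. The effect at 24 h exceeded that at 12 h by 1.59 ± 0.44 (SE; adjusted p = 0.00742). A second Igf1 probe set changed by 2.17 at 24 h and by 1.10 at 36 h (adjusted p = 0.0529), and 4 further probe sets with signal under 0.05 on average changed by -0.12 to 0.37 at 24 h, the highest of them called (adjusted p = 0.0407). With the muscle and fibroblast means as covariates the change at 24 h was 1.44 (adjusted p = 7.45e-06) after 80 mpk, and with multiple dosing 1.71 (adjusted p = 9.49e-07). With multiple dosing the fibroblast means of treated and vehicle arrays did not overlap, so that value extends the slope within groups.

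Igf2, the ligand that is highly expressed in embryonic tissue, was called in 1 comparison of the main analysis, at 36 h. At 6 h the vehicle arrays read 0.860, 1.20, 1.20, 1.17 and 1.09 and the 80 mpk arrays 1.48, 1.53 and 1.85. No arrays overlapped, and the difference of 0.56 ± 0.19 (SE; adjusted p = 0.169) missed the threshold, as did that at 12 h, 0.49 ± 0.19 (SE; adjusted p = 0.0907), where 4 of 4 treated arrays also lay above vehicle. Without the muscle-rich arrays the difference at 12 h was called higher, at 0.63 (adjusted p = 0.0433). After 40 mpk the differences were 0.34 ± 0.17 (SE; adjusted p = 0.574) at 6 h, with 5 of 5 arrays above vehicle, and 0.30 ± 0.20 (SE; adjusted p = 0.507) at 12 h. At 36 h the 80 mpk arrays read 1.04, 0.585, 0.688 and 0.637 and vehicle 1.06, 1.29 and 1.03. With 3 of 4 treated arrays below vehicle, Igf2 fell by 0.64 on the log2 scale (adjusted p = 0.0283), a call lost on leaving out any 1 of 6 of the 7 arrays compared and with only these groups in the fit (adjusted p = 0.110). The difference was -0.42 ± 0.22 (SE; adjusted p = 0.457) after 40 mpk, with 3 of 3 arrays below vehicle, and -0.28 ± 0.18 (SE; adjusted p = 0.241) with multiple dosing. Within groups Igf2 was higher where muscle markers were higher, by 0.05 ± 0.01 (SE; adjusted p = 2.82e-05) log2 units for each log2 unit of the muscle mean, and 2.31% of genes had such a positive slope. That slope was lost without the 23 muscle-rich arrays (adjusted p = 0.679). Without them the change at 36 h was -0.82 (adjusted p = 0.00239) after a single dose of 80 mpk and -0.54 (adjusted p = 0.0230) with multiple dosing. The skeletal muscle mean ran from -3.62 to 4.45 in the 80 mpk arrays at 36 h and from -3.45 to -2.86 in vehicle. Igf2 has 1 probe set, whose name carries a suffix that Affymetrix gives to probes shared by several transcripts, as do those used for Igf1, Igfbp4, Igfbp5 and Igfbp7.

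Igf1r, the receptor tyrosine kinase for both ligands, was called at no time up to 24 h. At 1 h it read 1.47, 2.07, 1.93, 1.72 and 1.60 after 80 mpk and 1.09, 1.20, 1.43, 1.65 and 1.49 in vehicle, with a difference of 0.36 ± 0.13 (SE; adjusted p = 0.792), and of 0.44 ± 0.14 (SE; adjusted p = 0.287) after 40 mpk. These overlapping groups gave no call. At 12 h the 80 mpk arrays read 1.58, 1.30, 1.30 and 1.48 against 1.65, 1.62, 1.66 and 1.96, all 4 below vehicle, with a difference of -0.29 ± 0.15 (SE; adjusted p = 0.283). At 36 h the 80 mpk arrays read 1.16, 0.851, 1.05 and 0.884 against 1.46, 1.30 and 1.52, all 4 below vehicle. Igf1r fell there by 0.54 on the log2 scale (adjusted p = 0.0191), and leaving out either of 2 vehicle or either of 2 treated arrays lost the call, as did the mean of all probe sets (-0.34, adjusted p = 0.115) and a fit of only these groups (adjusted p = 0.0550). With multiple dosing it read 1.11, 1.18, 1.90 and 1.25 against 1.97, 1.72, 1.59, 2.05 and 1.76, with 3 of 4 arrays below vehicle and a change of -0.45 ± 0.14 (SE; adjusted p = 0.00930), lost without the first treated array. That change was -0.23 (adjusted p = 0.343) with the muscle and fibroblast covariates and -0.28 (adjusted p = 0.259) without the muscle-rich arrays. Over the 5 Igf1r probe sets the change at 36 h after 80 mpk ran from -0.54 to -0.04, and 2 of them were called.

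**Figure D3:**
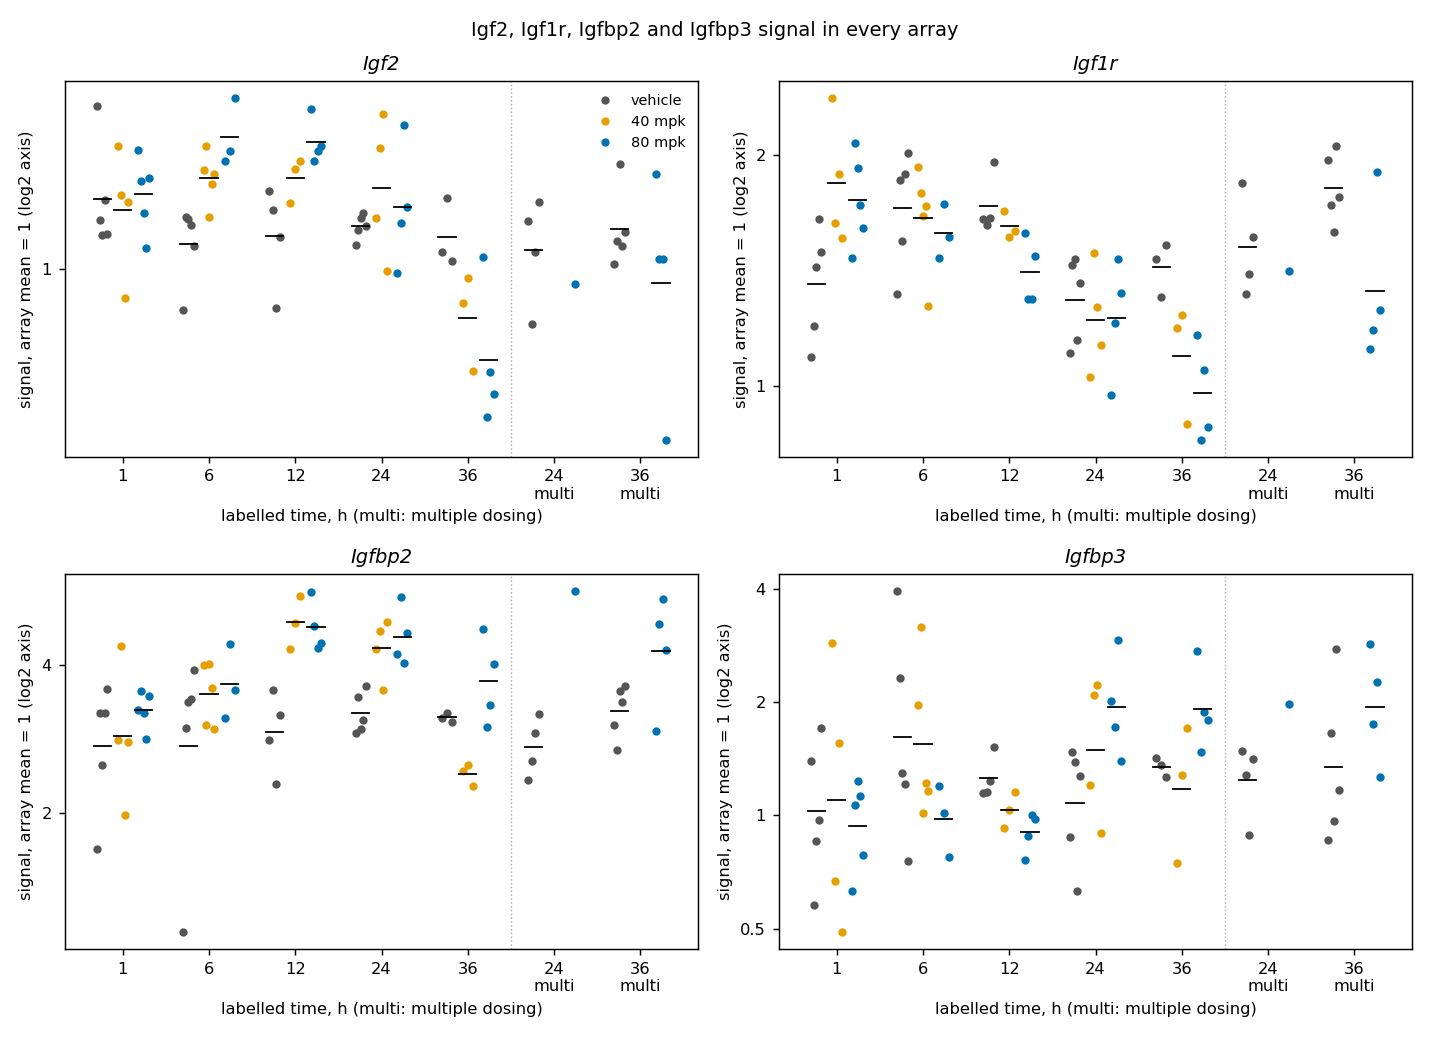
Signal of Igf2, Igf1r, Igfbp2 and Igfbp3 in every array, on a log2 axis, by labelled time and schedule, with points for arrays and black bars for geometric means. Igf2 is at 0.719 after 80 mpk at 36 h against 1.12 in vehicle, and Igfbp2 at 12 h is at 4.79 against 2.92.

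Igfbp2, a binding protein found in developing brain, was modestly higher in mid course. At 12 h it read 5.66, 4.80, 4.35 and 4.44 after 80 mpk, 4.32, 4.88 and 5.55 after 40 mpk and 2.81, 3.57, 2.29 and 3.16 in vehicle. Neither treated group overlapped vehicle. The changes were 0.71 ± 0.22 (SE; adjusted p = 0.0229) and 0.75 ± 0.23 (SE; adjusted p = 0.0397), and at 24 h 0.52 ± 0.21 (SE; adjusted p = 0.0459) after 80 mpk and 0.44 ± 0.21 (SE; adjusted p = 0.110) after 40 mpk. These calls were lost on leaving out any of 3 of the 8 arrays at 12 h after 80 mpk, any of 5 of the 7 at 12 h after 40 mpk and any of 7 of the 9 at 24 h after 80 mpk. Without the muscle-rich arrays they were 0.75 (adjusted p = 0.141), 0.64 (adjusted p = 0.325) and 0.64 (adjusted p = 0.102) in that order. These came from fewer arrays, and only the second was smaller than with all arrays. With each array centred on its median the last of them was 0.36 (adjusted p = 0.172) and that at 12 h after 40 mpk 0.79 (adjusted p = 0.0565), while the 12 h call after 80 mpk was kept. Within groups Igfbp2 was lower where stromal markers were higher, with a slope of -0.33 ± 0.06 (SE; adjusted p = 2.12e-05) on the fibroblast mean. With the muscle and fibroblast covariates its change at 24 h was 0.88 (adjusted p = 0.00013) after 80 mpk and 0.74 (adjusted p = 0.00161) after 40 mpk, and with multiple dosing 0.96 (adjusted p = 0.000112), against 0.40 ± 0.21 (SE; adjusted p = 0.124) without them. The fibroblast mean was itself higher in these treated groups. With multiple dosing it did not overlap vehicle (3.06 to 3.91 against 1.39 to 2.17), so the adjusted value carries the slope within groups beyond the arrays of either group. Igfbp3, the main carrier of IGFs in blood, was called in no comparison of treated with vehicle tumours. Its 80 mpk arrays at 24 h read 2.01, 1.72, 2.93 and 1.40 against 0.877, 1.47, 1.39, 0.631 and 1.28, with 3 of 4 above vehicle and a difference of 0.85 ± 0.38 (SE; adjusted p = 0.0798). At 12 h all 4 treated arrays lay below vehicle (-0.48 ± 0.40 SE, adjusted p = 0.583), and at 36 h all 4 above it (0.51 ± 0.43 SE, adjusted p = 0.528). The 95% interval of the difference at 24 h was 0.09 to 1.61.

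Igfbp4, Igfbp6 and Igfbp7 were called higher at 24 h, as Igf1 was, and at no earlier time. Igfbp4, which PAPP-A cleaves, read 7.87, 5.07, 9.22 and 6.15 after 80 mpk and 3.51, 2.77, 2.28, 2.13 and 2.19 in vehicle. The groups did not overlap, and the change was 1.45 ± 0.34 (SE; adjusted p = 0.000513). After 40 mpk it read 7.66, 7.76, 8.79 and 2.40, 1 array standing among the vehicle values, with a change of 1.23 ± 0.34 (SE; adjusted p = 0.00416). At 36 h after a single dose of 80 mpk it was higher by 1.33 ± 0.39 (SE; adjusted p = 0.0165), with 3 of 4 arrays above vehicle, a call lost without either of 2 vehicle arrays or 1 treated array. It was 1.08 (adjusted p = 0.140) without the muscle-rich arrays, and with only the groups compared the adjusted p was 0.121. With multiple dosing at 36 h the change was 1.85 ± 0.34 (SE; adjusted p = 8.5e-06), from 3.05 (SD 0.58 log2, n = 5) to 11 (SD 0.33 log2, n = 4). Igfbp6, which prefers IGF2 over IGF1, read 1.55, 0.336, 0.813 and 0.556 after 80 mpk and 0.344, 0.222, 0.182, 0.285 and 0.331 in vehicle at 24 h. With 3 of 4 treated arrays above vehicle its change was 1.39 ± 0.52 (SE; adjusted p = 0.0307), and without either of 2 vehicle or 2 treated arrays the call was lost, down to 1.01 (adjusted p = 0.180) without the first 80 mpk array. It was also lost without the muscle-rich arrays, at 1.52 (adjusted p = 0.0989), a difference no smaller than before but from fewer arrays. After a single dose of 80 mpk at 36 h the difference was 0.65 ± 0.59 (SE; adjusted p = 0.567). After 40 mpk it read 2.14, 1.60, 0.753 and 0.406, all above vehicle, with a change of 1.93 ± 0.52 (SE; adjusted p = 0.00309), and with multiple dosing at 36 h it changed by 2.20 ± 0.52 (SE; adjusted p = 0.000385).

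Igfbp7, a low-affinity relative of the binding proteins that is abundant in blood vessels, read 23.8, 20.6, 18.6 and 19.9 after 80 mpk, 19.2, 25.2, 20.0 and 16.5 after 40 mpk and 14.9, 9.36, 9.05, 10.1 and 9.63 in vehicle at 24 h. All 8 treated arrays were above vehicle, by 0.98 ± 0.17 (SE; adjusted p = 3.67e-06) and 0.94 ± 0.17 (SE; adjusted p = 1.46e-05). At 36 h the difference was 0.50 ± 0.19 (SE; adjusted p = 0.0866) after a single dose of 80 mpk and 1.18 ± 0.17 (SE; adjusted p = 4.17e-08) with multiple dosing. A second, dim Igfbp7 probe set disagreed with the first, falling by 0.37 on the log2 scale at 24 h (adjusted p = 0.0130). The 80 mpk effect at 24 h exceeded that at 12 h by 1.65 for Igfbp4 (adjusted p = 0.0152), 2.09 for Igfbp6 (adjusted p = 0.0435) and 0.84 for Igfbp7 (adjusted p = 0.0133). With Igf1, that made 4 members with a higher effect against 9.4% of genes, and Irs4 was the 1 with a lower effect against 8.02%. The Igfbp6 difference was lost in 10 of 17 fits that left out 1 array, and those of Igfbp4 and Igfbp7 were lost without the third vehicle array at 12 h (adjusted p = 0.0609 and 0.0673). Of the 5 differences, that of Irs4 alone was called with the muscle and fibroblast covariates, where Igf1 was at 0.86 (adjusted p = 0.130), and it alone was called without the muscle-rich arrays, where Igf1 was at 1.67 (adjusted p = 0.0760). That last Igf1 difference came from fewer arrays and was no smaller than with all of them.

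**Figure D4:**
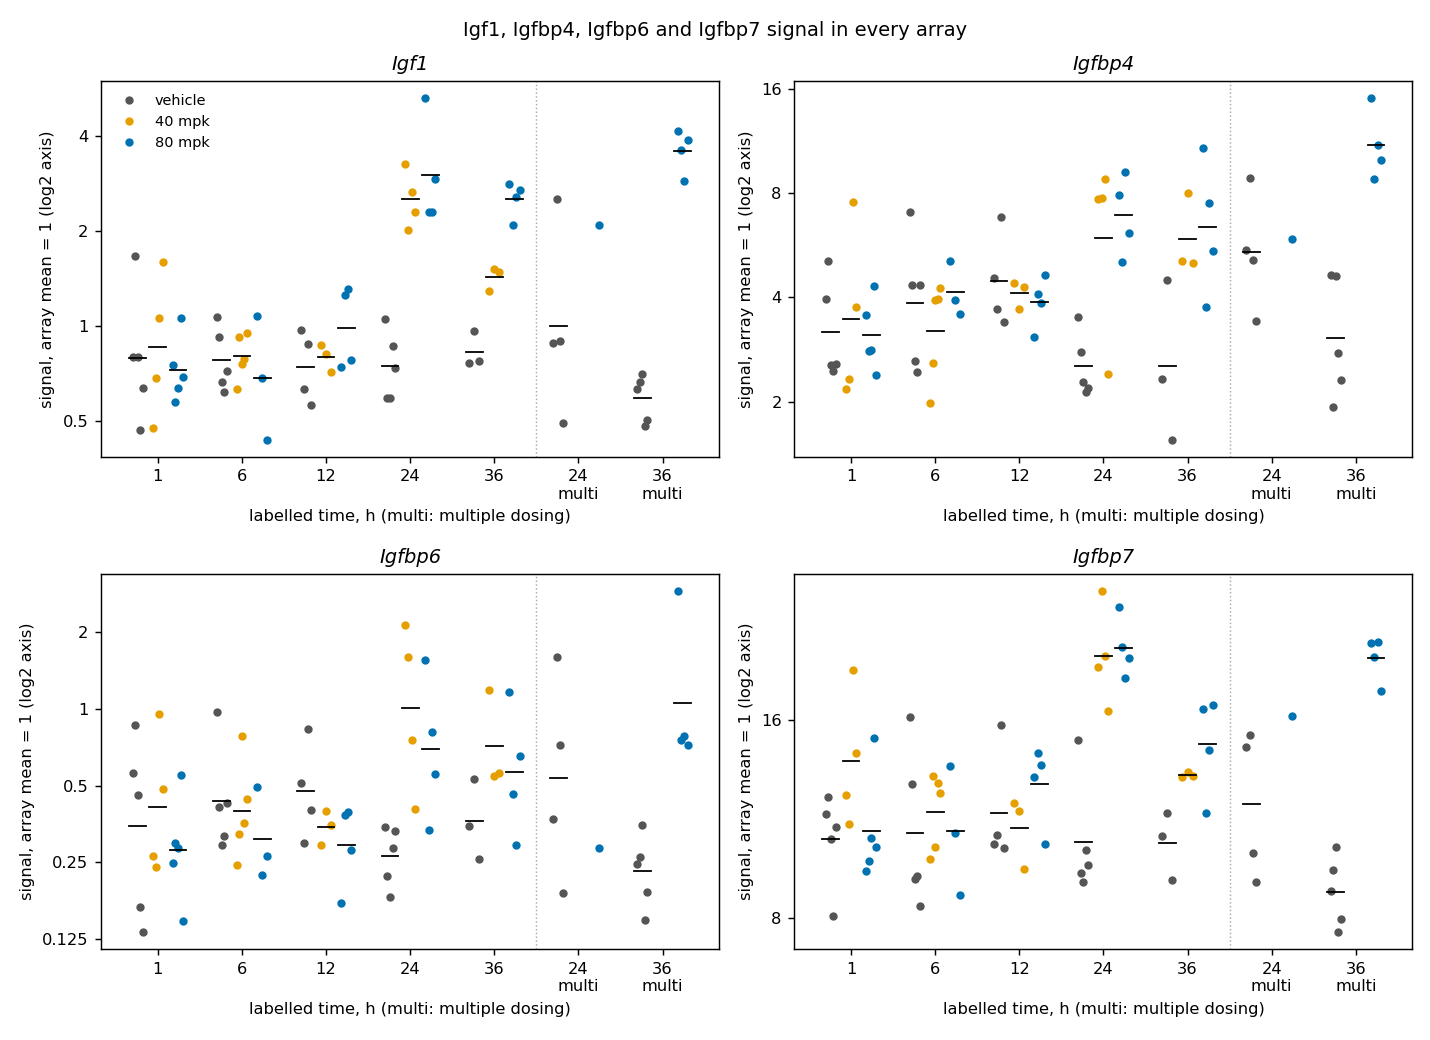
Signal of Igf1, Igfbp4, Igfbp6 and Igfbp7 in every array, on a log2 axis, by labelled time and schedule, with points for arrays and black bars for geometric means. At 24 h after 80 mpk the means are 3.01, 6.90, 0.696 and 20.6, against 0.749, 2.53, 0.265 and 10.4 in vehicle.

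Transcripts of other cell types were higher at the time of these late members. At 24 h after 80 mpk, 6 of 8 fibroblast markers, 7 of 8 macrophage markers, 6 of 8 endothelial markers and 3 of 6 adipocyte markers were called higher, with median changes of 1.15, 1.31, 0.92 and 2.09. In that comparison 17.6% of all genes were called higher. After 40 mpk at 24 h, when the same 4 late members were called, the counts were 4 of 8, 6 of 8, 1 of 8 and 1 of 6, against 14.5% of all genes. Granule lineage markers also changed. At 24 h after either dose 4 of 8 were higher and 1 lower, with median changes of 0.36 after 80 mpk and 0.28 after 40 mpk. Of all genes, 15.3% were called lower after 80 mpk and 12.1% after 40 mpk. With repeated doses at 36 h, 4 of 8 were higher and 3 lower, against 19.8% and 17.7% of all genes. The mean fibroblast signal over the list was 2.56 to 3.46 on the log2 scale in the 4 treated arrays and 1.59 to 2.79 in the 5 vehicle arrays, and the macrophage mean 2.48 to 3.43 and 1.13 to 2.20. At 36 h after a single dose of 80 mpk, 7 of 8 macrophage and 0 of 8 fibroblast markers were higher, and with repeated doses 7 of 8 and 6 of 8, the fibroblast mean running from 3.06 to 3.91 against 1.39 to 2.17 in vehicle. After the single dose 5.22% of all genes were called higher at 36 h. None of the markers was at 0, and Plin1, an adipocyte marker, had a geometric mean of 0.0980. Within groups, 4 members rose with the fibroblast mean (Igf1, Igfbp4, Igfbp6 and Igfbp7, with slopes of 0.52, 0.89, 1.13 and 0.36) and 2 fell (Igf1r and Igfbp2, -0.13 and -0.33), against 16% and 20.5% of genes. The Igfbp5 slope was 0.15 ± 0.07 (SE; adjusted p = 0.101) and that of Irs4 0.04 ± 0.05 (SE; adjusted p = 0.619). On the macrophage mean the same 4 were positive and the same 2 negative, Igf1r at -0.12 and not called with array weights (adjusted p = 0.0784) or without the muscle-rich arrays (adjusted p = 0.0594), against 13.4% and 18.8% of genes. On the endothelial mean 6 were positive, those 4 with Igfbp3 (0.70) and Igfbp5 (0.36), both lost with the mean of all probe sets (adjusted p = 0.140 and 0.568), Igfbp3 also without the muscle-rich arrays (adjusted p = 0.0938) and Igfbp5 with median centring (adjusted p = 0.0688), and Igfbp2 was negative (-0.48), against 16.2% and 17.6%. With the muscle and fibroblast means as covariates the change at 24 h after 80 mpk was 0.44 (adjusted p = 0.0217) for Igfbp4, 0.11 (adjusted p = 0.869) for Igfbp6 and 0.59 (adjusted p = 6.97e-05) for Igfbp7. With multiple dosing it was 0.40 (adjusted p = 0.0615), 0.36 (adjusted p = 0.594) and 0.55 (adjusted p = 0.000493) in that order, and after 40 mpk at 24 h 0.34 (adjusted p = 0.101), 0.78 (adjusted p = 0.119) and 0.64 (adjusted p = 2.25e-05). The fibroblast covariate was itself higher in these treated groups. With multiple dosing it did not overlap vehicle, so for every member the adjusted value there extends the slope within groups. The skeletal muscle markers differed by a median of 2.43 at 24 h, with 0 of 8 called by limma. The part of macrophage, endothelial and adipocyte transcripts in these changes was not tested.

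**Figure D5:**
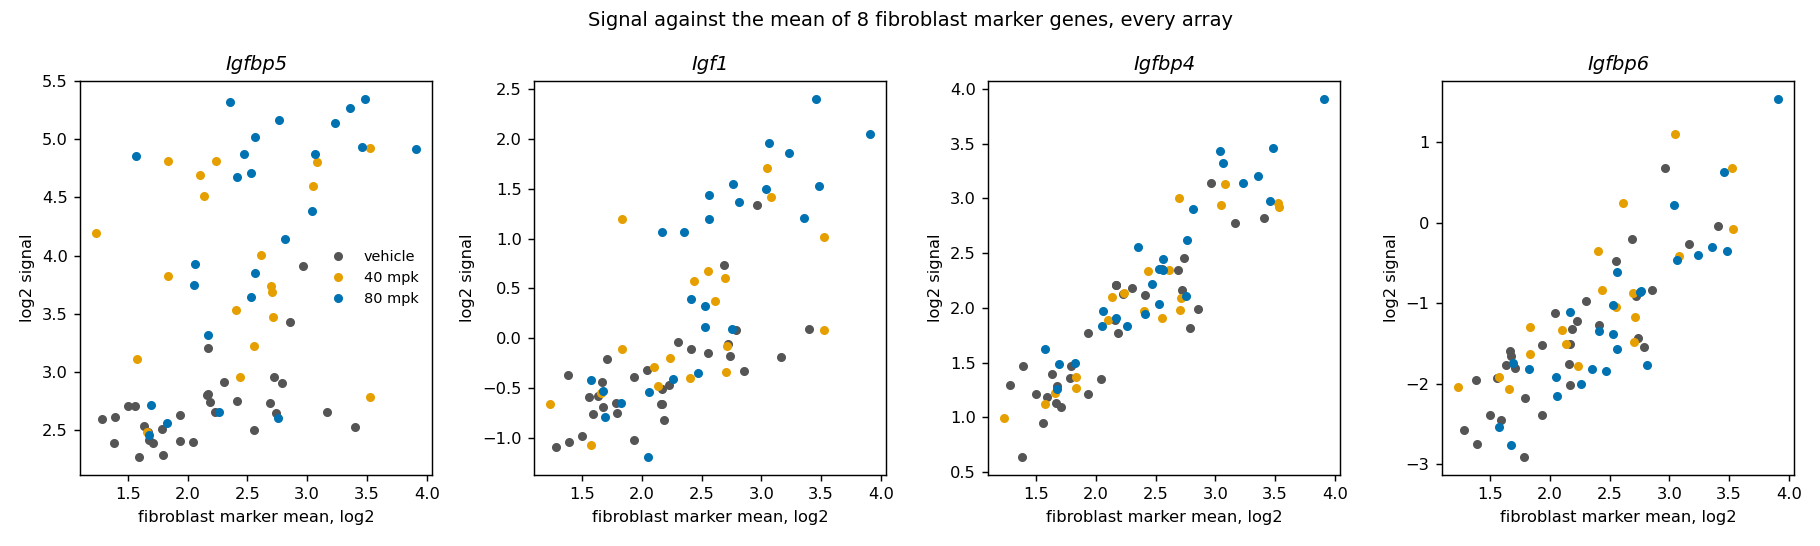
Log2 signal of Igfbp5, Igf1, Igfbp4 and Igfbp6 in all 75 arrays against the log2 mean of 8 fibroblast marker genes in the same array, coloured by dose. The slopes within groups, fitted as 1 common slope for each gene, are 0.89 for Igfbp4, 1.13 for Igfbp6 and 0.15 for Igfbp5.

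The 2 doses were set against each other at 6, 12, 24 and 36 h, 40 differences over the 10 members, and 0 were called by limma, with 0%, 0.0603%, 1.21% and 0.826% of all genes called. At an unadjusted p under 0.05 by limma there were 0, 0, 0 and 2 members, beside 785, 2355, 1607 and 2535 of the 21552 genes. For Igfbp5 the difference of 80 from 40 mpk was 0.03 at 6 h, with a 95% interval of -0.40 to 0.46, and 0.31 at 24 h (-0.11 to 0.73), where all 4 of the 80 mpk arrays lay above all 4 of the 40 mpk arrays. For Irs4 it was 0.26 at 12 h (-0.05 to 0.57). The pair that passed unadjusted were Igf1 at 36 h, 0.83 (0.14 to 1.51), and Igfbp2 at 36 h, 0.63 (0.16 to 1.10), and in both all 4 of the 80 mpk arrays were above the 40 mpk arrays.

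Of 45 other genes of the pathway on a list, 42 were measured. After 80 mpk, 2 were called higher and 2 lower at 6 h, 5 and 6 at 12 h, 18 and 2 at 24 h, and 7 and 2 at 36 h, while repeated doses gave 17 and 3. Of all genes, 0.575% were called higher and 1.18% lower at 6 h, 3.85% and 5.99% at 12 h, 17.6% and 15.3% at 24 h, 5.22% and 5.64% at 36 h, and 19.8% and 17.7% with repeated doses. The 18 and 2 at 24 h became 10 and 6 with each array centred on its median and 10 and 3 without the muscle-rich arrays, and with only the groups compared in the fit the 5 and 6 at 12 h became 2 and 2 and the 7 and 2 at 36 h became 3 and 1. Markers of fibroblasts, macrophages and endothelium were higher at 24 h too, as given above, and their part in the pathway counts was not tested. Among 6 receptors and binding proteins 2 were higher at 24 h. Igfbpl1, a binding-protein relative, changed by 1.42 (adjusted p = 8.56e-14), with 0.17 at 6 h, 0.83 at 12 h and 0.74 at 36 h, and Igf2r, which takes IGF2 up for degradation, by 0.46 (adjusted p = 0.0357), with -0.04, 0.03 and 0.12. Of 8 adaptors 5 were higher and 1 lower at 24 h, with a median change of 0.53, beside 17.6% and 15.3% of all genes and their median of -0.02. Gab1, a docking protein, changed by 0.77 (adjusted p = 8.69e-09), and the receptor-binding inhibitors Grb14 and Grb10 by 1.01 (adjusted p = 4.14e-06) and 1.53 (adjusted p = 0.000216). Irs1, the main IRS adaptor of many cells, fell, by 0.44 at 6 h, 0.63 at 12 h, 0.53 at 24 h and 0.35 at 36 h on the log2 scale (adjusted p = 0.00663, 2.59e-06, 6.52e-06 and 0.0229), while Irs4 was higher at the first 2 of these times. In the other adaptors named the changes at 6, 12 and 36 h were -0.04, -0.12 and 0.49 for Gab1, -0.02, 0.16 and 0.60 for Grb14, and 0.04, -0.19 and 1.01 for Grb10.

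Of 13 kinase cascade genes measured, 7 were higher and 0 lower at 24 h, with a median of 0.24, where 17.6% of all genes were higher. Regulatory subunits of phosphoinositide 3-kinase had the smallest adjusted p among them. Pik3r3 changed by 1.38 (adjusted p = 5.52e-14), Pik3r1 by 0.74 (adjusted p = 1.78e-06) and Pik3r2 by 0.53 (adjusted p = 9.37e-05). Pik3r3 was already higher at 6 h, by 0.60 (adjusted p = 0.00590), and at 12 h, by 1.18 (adjusted p = 5.16e-10), and stood at 0.81 at 36 h. At 6, 12 and 36 h Pik3r1 was at -0.12, -0.15 and 0.87, and Pik3r2 at 0.33, 0.51 and 0.43. Gsk3b, a kinase that AKT inhibits, changed by 0.36 (adjusted p = 0.000291) at 24 h, and by 0.28, 0.28 and 0.13 at the other times. Of the 4 FoxO factors, which lie downstream of AKT, Foxo3 and Foxo1 were higher at 24 h, by 0.74 (adjusted p = 2.31e-09) and 0.74 (adjusted p = 0.000288), and on the log2 scale Foxo6 fell by 1.10 (adjusted p = 2.1e-09). Foxo6 was lower from 6 h, at -0.89, -1.26 and -0.10 at 6, 12 and 36 h, the last not called, and Foxo3 was at 0.12, 0.16 and 0.49 and Foxo1 at -0.13, -0.17 and 0.00. Of 6 regulators and neighbours of Igf2 measured, Plagl1, a zinc finger factor, and Dlk1, an imprinted transmembrane protein, were higher at 24 h, by 0.36 (adjusted p = 0.0244) and 1.16 (adjusted p = 0.0350), with 0.57, 0.60 and 0.09 and 0.74, 0.47 and 0.50 at the other times. Of 5 proteases of the binding proteins and their inhibitors, 0 were called at 24 h by limma, and 2 fell at 12 h. Those 2, chosen after their values were seen, were Htra1, a secreted protease, by 0.89 (adjusted p = 0.0281) and Pappa by 0.51 (adjusted p = 0.00496) on the log2 scale.

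Over 18 groups, Pearson correlations of mean log2 signal describe which genes had a similar course. The points hold treated and vehicle groups of the same times, and no test was made. Among the members the closest pair was Igf1 and Igfbp7, at 0.934. Igf1 stood at 0.867 with Igfbp6 and 0.866 with Igfbp4. Igfbp5 was closest to its chromosomal neighbour Igfbp2, at 0.838, and Irs4 to Igf2, at 0.723. The lowest value was that of Igf1 with Igf1r, at -0.721. Over all genes compared, the 3 most like Igfbp5 were Tnik (0.979), Nol4l (0.978) and Maged2 (0.970), and those most like Irs4 were Lrba (0.937), Urod (0.932) and Trappc4 (0.930). For Igf1 they were Selenop (0.980), Fcgr3 (0.977) and Pros1 (0.976). Igfbp4 was most like Grb10 (0.975), Optn (0.973) and Yap1 (0.972), of which Grb10 was on the adaptor list above, Igfbp6 most like Pi16 (0.981), Clec3b (0.967) and Htra3 (0.958), and Igfbp7 most like Entpd1 (0.969), Man1a (0.964) and Ctso (0.962). The same measure gave Arhgap20 (0.934), Chrnb4 (0.929) and Trp53inp1 (0.927) for Igfbp2, Phf7 (0.925), Ppp2r3c (0.915) and Tiam2 (0.912) for Igf2, Usp40 (0.931), Deptor (0.928) and Psd (0.919) for Igf1r and, with the lowest values, Cd5l (0.824), Ccl5 (0.823) and Rap1b (0.822) for Igfbp3.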

How the data were processed

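Array intensities of 75 mouse medulloblastoma allograft samples were used as the authors deposited them. The submitters' processing notes name RMA, without a version. The deposited intensity values are linear, each array averages 1, and the medians of the arrays run from 0.109 to 0.131, so a further scaling step not described in the labels had been applied. The genome build and the annotation release are not given in the sources used here. No detection calls, scan dates or batches were given, so neither a background limit nor a batch could be set, and the number of arrays limits the precision.

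Here log2 was taken of each value. Of 43681 probe sets, 30342 carry 1 gene symbol, 13339 carry none and stayed out, and the probe set with the highest mean stood for each of 21552 genes. 1 linear model with a mean for each of 19 groups was fitted with limma 3.58.1 (R 4.3.3) to all 75 arrays, with empirical Bayes variances and 56 residual degrees of freedom. The contrasts were 80 and 40 mpk against vehicle at each time, 80 against 40 mpk, and differences of these changes between times and schedules. Benjamini-Hochberg adjustment covered the 21552 genes of a comparison, with calls at an adjusted p under 0.05, and all tests were two-sided. Slopes on marker means came from the same model with that mean as an added term. The fit was tested on simulated data. Samples were grouped by their titles, and numbers shared by groups did not mark common animals in the labels.

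The members, the pathway list and the marker lists were chosen with earlier results of these data known. Named beside the members were Gli1 and Ptch1 as a check, in each pathway group the called genes with the smallest adjusted p at 24 h after 80 mpk, up to 4 a group, and for each member the 3 genes with the most similar group means among genes above the median level. Alternatives were another choice of probe set, a filter on dim genes, quantile and median scaling, a pseudocount of 0.05, other variance settings, array weights, a replicate block, marker covariates, fits to fewer groups or without the muscle-rich arrays, and fits without 1 array at a time.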

Additional observations from a re-analysis of the deposited data

Results flagged for a closer look

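In 140 groups of arrays, 1 for each member and group of 4 or 5, the highest or lowest array stood apart from the others in 9, where chance would set apart about 1 in 20. Igf2 read 1.80 in the first vehicle array at 1 h against 1.13 to 1.28 in the others. Igf1r read 1.96 in the fourth vehicle array at 12 h against 1.62 to 1.66, and Igfbp2 read 1.14 in the first vehicle array at 6 h against 2.98 to 3.91. Igfbp4 read 2.40 in the fourth 40 mpk array at 24 h against 7.66 to 8.79, and Igfbp5 read 15.0 in the second multiple-dose vehicle array at 24 h against 5.67 to 6.25. Igfbp6 read 2.90 in the first multiple-dose 80 mpk array at 36 h against 0.722 to 0.785. Igfbp7 stood apart in 3 groups, at 15.0 in the fourth 80 mpk array at 1 h against 9.43 to 10.6, at 15.7 in the third vehicle array at 12 h against 10.2 to 10.7, and at 14.9 in the first vehicle array at 24 h against 9.05 to 10.1. The fibroblast marker mean was the highest of its group in the flagged arrays of Igf2 (2.86), Igfbp2 (3.40), Igfbp5 (2.96) and Igfbp6 (3.91). The same held for those of Igfbp7 (2.76, 3.16 and 2.79). In the Igfbp4 array it was the lowest of its group (1.83), and in the Igf1r array (2.19) it was neither. The Igf2 array was also the 1 muscle-rich array of its group, with a muscle mean of 3.84. The part of cell mixture in these values was not tested.

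The 80 mpk effect differed between times or schedules in 7 tested differences on the log2 scale. From 12 h to 24 h it was higher by 1.59 for Igf1, 1.65 for Igfbp4, 2.09 for Igfbp6 and 0.84 for Igfbp7, and it fell by 1.07 for Irs4. From 24 h to 36 h the Igfbp5 effect fell by 1.29. With multiple against single dosing at 36 h it was higher by 0.92 for Igfbp5.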

How the results depend on the processing

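Of 999 values recomputed for members called in the main analysis, 891 kept direction and call, 108 lost the call and none reversed. Counts below are of members called and cover some of the comparisons, and calls also changed in others. Without the muscle-rich arrays Igfbp2 and Igfbp6 were lost at 24 h after 80 mpk, and Igfbp2 at 12 h after either dose. Only 52 arrays remained in these fits, so a lost call need not mean a smaller change. With the muscle-rich arrays left out, Igf2 was gained at 12 h after 80 mpk. With the muscle and fibroblast covariates the multiple-dose comparison lost Igf1r, Igfbp4 and Igfbp6 and gained Igfbp2. In that comparison the fibroblast mean of every treated array lay above that of every vehicle array, which limits these fits. The count at 6 h after 80 mpk, 2, was 1 with dim genes left out, which removes Irs4, and 1 with only the groups compared in the fit. At 36 h after 80 mpk 5 members became 2 with only the groups compared. At 6 h after 40 mpk 2 became 1 with dim genes left out and 1 without the muscle-rich arrays, and at 36 h 1 became 0 with only the groups compared. The 24 h against 12 h difference, 5, was 1 with the muscle and fibroblast covariates and 1 without the muscle-rich arrays. The 36 h against 24 h difference, 1, was 3 with array weights and 2 with the covariates. Multiple against single dosing, 1, was 2 with array weights and with the mean of all probe sets, and 0 with quantile normalization, median centring, the covariates and the replicate block. Vehicle arrays across times, 0, gave 1 with array weights and with the covariates, and the muscle slope, 1, gave 0 without the muscle-rich arrays. Leaving out each array gave 2 to 4 members at 36 h and 0 to 1 for multiple against single dosing after 80 mpk, 1 to 2 at 6 h and 0 to 1 at 36 h after 40 mpk, 2 to 5 for 24 h against 12 h, 1 to 2 for 36 h against 24 h, and 0 to 1 for vehicle arrays. The array behind the 2 at 24 h against 12 h was the third vehicle array at 12 h. Except where stated, the cause was not tested. Same-numbered arrays did not deviate together: of 42 pairs 14 correlated above 0.1 (range -0.61 to 0.50), and every pair did so in 0 comparisons. With the replicate block Igfbp6 was at 2.0 (adjusted p = 0.0542) for 24 h against 12 h and Igfbp5 at 0.89 (adjusted p = 0.0528) for multiple against single dosing, and no other member call changed. Median centring shifted all genes by -0.16 at 24 h after either dose and by -0.15 with multiple dosing. It changed the share of calls that were higher after 80 mpk from 32.8% to 18.2% at 6 h, from 39.1% to 50.8% at 12 h, from 53.6% to 24.2% at 24 h and from 48.1% to 30.3% at 36 h. After 40 mpk that share went from 54.6% to 20.4% at 24 h and from 42.5% to 18.6% at 36 h, and with multiple dosing from 52.8% to 31.5%. With quantile normalization it was 50.4% at 12 h and 43.4% at 24 h after 80 mpk, and 40.0% at 24 h and 28.3% at 36 h after 40 mpk. Without the muscle-rich arrays no value was computed for 80 mpk at 6 h and 40 mpk at 24 and 36 h, where fewer than 2 arrays of a group remained. Without detection calls, the signal over background behind the dim Irs4 values is unknown.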

Other observations

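The multiple-dose 80 mpk group at 24 h held 1 array and entered no comparison. Its Igfbp5 signal was 39.9, above the 4 vehicle arrays of that time, which ran from 5.67 to 15.0. Igfbp2, at 5.68 against 2.34 to 3.18, Igfbp3, at 1.98 against 0.889 to 1.49, and Igfbp7, at 16.2 against 9.08 to 15.2, also lay above all vehicle arrays. The other 6 members lay within the vehicle range, with Igf1 at 2.10 against 0.493 to 2.53. The share of all genes for which this array lay above vehicle was not counted, so these positions of 1 array are descriptions only.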
